A study of Mus musculus with 20 samples.

Results

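The comparison described here was the effect of time after tamoxifen in control kidneys, together with the variation between those kidneys. Its members were the 10 Fh1+/+ libraries of a bulk RNA-seq series of 20 mouse kidney libraries, chosen by their labels. Of these, 5 were taken at day 10 and 5 at day 5 after induction. The other 10 libraries came from Fh1-/- littermates at the same days and were used only to set the control change beside theirs. Fh1 encodes fumarate hydratase, the enzyme of the tricarboxylic acid cycle that converts fumarate to malate.

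All animals, control and null, carried R26 CreERT2/CreERT2, a tamoxifen-inducible Cre expressed from the ubiquitous Rosa26 locus, on a mixed C57BL/6 129/SvJ background. The Fh1+/+ mice had no floxed Fh1 allele to recombine but received the same induction: 3 intraperitoneal injections of 2 mg tamoxifen, one every other day, at 12 weeks of age. RNA came from a small piece of each kidney, so the share of cortex, medulla and papilla in a piece could differ from animal to animal. The labels name neither the animal nor its sex, and p-values therefore measure the spread between these libraries. No uninduced kidneys and no other day were analysed, so time, age and time since the last tamoxifen dose cannot be told apart.

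The kidney cortex is made mostly of proximal tubule, the segment that recovers glucose, phosphate and amino acids from the filtrate and secretes organic ions. The medulla and papilla hold the loops of Henle and collecting ducts that concentrate urine, and the urothelium lines the renal pelvis. In mice the proximal tubule is one of the most sex-dimorphic epithelia, with androgen driving transporters and cytochrome P450 genes in males.

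Total counts per library ran from 16654829 to 19770648 (median 18547503) over 24421 gene symbols, and 14501 genes passed the filter on low counts. Values below are CPM, the counts scaled to a common library size by the trimmed mean of M-values, so they compare 1 gene between libraries and not genes with each other. The proximal tubule marker Lrp2, which encodes megalin, lay between 1907 and 3154 CPM, and Umod, which encodes uromodulin of the thick ascending limb, between 4615 and 10621 CPM. Fh1 itself was at 254, 240, 243, 233 and 267 CPM at day 10 (replicates 1 to 5) and 272, 245, 227, 274 and 271 CPM at day 5. Its log2 fold change was -0.06 (95% interval -0.23 to 0.11), and the ranges of both days overlapped.

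A set of 3 of the 10 libraries stood apart: day 10 replicates 2 and 3 and day 5 replicate 1. They held Xist, the long non-coding RNA of the inactive X chromosome, at 330, 316 and 323 CPM, against at most 1.10 CPM in the other 7. The summed level of the Y-linked genes Ddx3y, Eif2s3y, Kdm5d and Uty was 0.528, 0.460 and 0.673 CPM in the same 3 and between 102 and 140 CPM in the other 7. Mice of both sexes were used in the study. Because 2 such libraries were at day 10 and 1 at day 5, the time comparison was also fitted with the Y-linked level as a covariate.

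The first question was which genes changed in control kidneys between day 5 and day 10. No gene did by the thresholds used for the study (adjusted p under 0.01 and absolute log2 fold change over 0.58). With edgeR's quasi-likelihood test 0 of 14501 genes were called, or 0%, and none had an adjusted p under 0.05; the lowest Benjamini-Hochberg adjusted p was 0.465. At an unadjusted p under 0.05 there were 575 genes, 288 higher at day 10 (1.99% of genes tested) and 287 lower (1.98%). DESeq2 also called 0 genes at these thresholds and had 1, Ddo, at an adjusted p under 0.05 (8.23e-05). limma-voom with quality weights called 0. With upper quartile scaling, which moved the median log2 fold change of all genes from 0.01 to 0.03, the genes at an unadjusted p under 0.05 were split into 391 higher and 215 lower.

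The intervals show how large a change these 10 libraries would leave room for. The median absolute log2 fold change was 0.11, against a median standard error of 0.14. The 95% interval lay wholly within ±0.58 for 9485 genes (65.4%) and within ±1 for 12588 genes (86.8%). For the remaining genes the interval reached beyond these limits. In 36 genes every day 10 library lay above every day 5 library (0.248%), and in 50 genes every one lay below (0.345%).

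The 20 genes with the lowest p, 10 in each direction, are described here although none passed the adjusted threshold. Ddo, on chromosome 10 (GRCm38, 40630011 to 40681847, plus strand), encodes D-aspartate oxidase and had the lowest p of all (3.2e-05 unadjusted). Its level was 41.2, 46.7, 41.7, 44.4 and 42.7 CPM at day 10 and 58.6, 63.1, 54.0, 57.2 and 60.04 CPM at day 5. The groups did not overlap, and the log2 fold change was -0.43 (95% interval -0.58 to -0.29).

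Enpep, which encodes aminopeptidase A, the brush-border enzyme that cleaves angiotensin II, was at 143, 143, 114, 113 and 146 CPM at day 10 and at 167, 164, 188, 218 and 160 CPM at day 5, again without overlap. Habp2, a serine protease gene, had means of 128 ± 9.79 CPM at day 10 and 172 ± 18.7 CPM at day 5 (SD, n = 5 each). Slc10a1, a bile acid transporter gene, had the largest log2 fold change of the 10 lower genes, -1.91 (95% interval -2.79 to -1.02), but at a mean of 1.31 CPM at day 5 and 0.342 CPM at day 10. Adam11, Cited4, Dnajc6, C2cd2l, Gna12 and Fam78a had log2 fold changes between -0.84 (Adam11) and -0.32 (Gna12).

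Among the 10 higher genes, Cd14, the lipopolysaccharide co-receptor of myeloid cells, was at 8.29, 12.7, 13.8, 11.1 and 10.7 CPM at day 10 and at 8.08, 8.23, 6.49, 6.78 and 8.11 CPM at day 5. All day 10 values lay above all day 5 values, by a narrow margin in replicate 1. Its log2 fold change was 0.58 (95% interval 0.26 to 0.91). Ncf4, a subunit of the phagocyte NADPH oxidase, averaged 2.00 ± 0.721 CPM at day 10 and 0.896 ± 0.240 CPM at day 5 (SD, n = 5 each).

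Dnah1, a dynein heavy chain gene of motile cilia, had the largest log2 fold change of the higher genes at 1.40 (95% interval 0.70 to 2.10), with all libraries at or under 1.15 CPM. Amy1, an amylase gene, had 6.25 ± 0.573 CPM at day 10 and 4.02 ± 0.601 CPM at day 5 (SD, n = 5 each). The other 6 genes were Dcdc2a, Zfp868, Gngt2, Kbtbd11, Klf11 and Rarres2, with log2 fold changes between 0.33 and 0.68. All 20 genes kept their direction under each of the alternatives that gave them a value. They were chosen for a low p in the same libraries that the alternatives refit, so this adds no independent support.

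**Figure D1:**
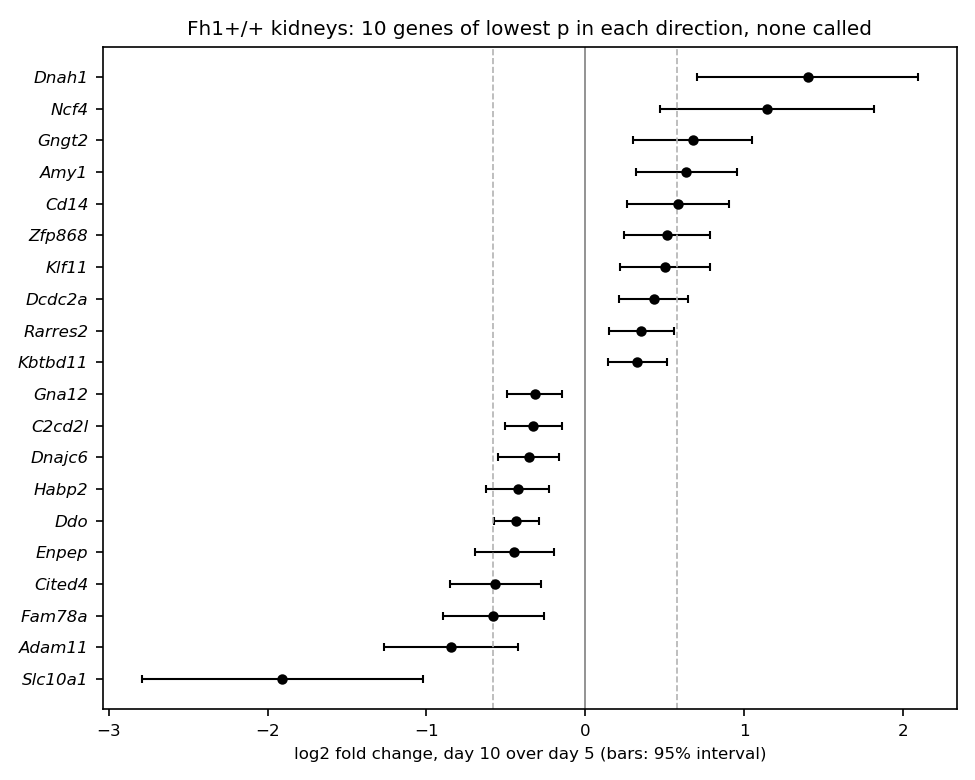
Log2 fold change of day 10 over day 5 in the Fh1+/+ libraries (x axis) for the 10 genes of lowest p in each direction (y axis), with 95% intervals as bars and dashed lines at ±0.58. Intervals range from narrow (Ddo, -0.58 to -0.29) to wide (Slc10a1, -2.79 to -1.02), and none of the 20 passed the adjusted threshold.

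Gene lists were read against those background shares. Of 50 lists, none had a called member. The pan-leukocyte and myeloid list had the largest number of higher genes: 7 of 31 genes tested passed an unadjusted p of 0.05 with a higher day 10 level, and 0 with a lower one. Of the 31, 27 had positive log2 fold changes, with a median of 0.29 against 0.01 over all genes. Among them Fcer1g, the Fc receptor gamma chain, averaged 12.5 ± 3.02 CPM at day 10 and 8.30 ± 1.28 CPM at day 5 (SD, n = 5 each). Coro1a, Ptprc (CD45), Tyrobp and Csf1r had log2 fold changes of 0.52, 0.45, 0.50 and 0.29.

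The count moved with single libraries while the median stayed between 0.24 and 0.39. It was 3 without day 10 replicate 4, 4 without day 5 replicate 3 or 4, and 11 without day 10 replicate 2. With the Y-linked covariate it was 11 of 31 higher, at backgrounds of 2.41% higher and 3.14% lower, and the median was 0.28. The summed level of the list was 386, 317, 406, 508 and 482 CPM at day 10 and 357, 416, 236, 275 and 372 CPM at day 5, so the groups overlapped. Blood cell genes had the largest median log2 fold change of the 50 lists (0.93), and 2 of the 10 tested passed an unadjusted p of 0.05, both with a higher day 10 level. Their globin transcripts were highest in day 10 replicates 1, 4 and 5, where Fcer1g (14.6, 15.9 and 13.4 CPM) and Coro1a (20.6, 23.3 and 15.5 CPM) also had their 3 highest values. Of the other leukocyte genes named above, Tyrobp had its 3 highest values there too. Csf1r was instead highest in day 10 replicate 3 (97.8 CPM), and Ptprc was higher in replicate 3 (11.7 CPM) than in replicate 5 (11.1 CPM). The part of blood in the leukocyte list was not tested. In bulk tissue more cells of a type and more RNA per cell cannot be told apart. Of the lymphocyte and plasma cell list, 10 of 33 genes passed the filter on low counts, all with a log2 fold change above 0 and 1 at an unadjusted p under 0.05. The T cell gene Cd3e averaged 0.448 CPM at day 10 and 0.339 CPM at day 5.

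Acute phase genes, which the liver and inflamed tissues express, had 4 of 19 higher at an unadjusted p under 0.05, 18 of 19 above 0 and a median of 0.50. Cp, which encodes ceruloplasmin, was at 109, 121, 246, 110 and 80.2 CPM at day 10 and 96.9, 83.8, 68.7, 58.2 and 63.2 CPM at day 5. The highest value came from replicate 3 and the lowest day 10 value lay inside the day 5 range. Saa3, a serum amyloid gene, was at 34.3 and 43.5 CPM in day 10 replicates 4 and 5 and at or under 6.57 CPM in the other 8. The median of the list stayed between 0.41 and 0.62 when each library was left out. The count of higher genes was 8 without day 5 replicate 1. It was 3 without day 10 replicate 4, day 5 replicate 4 or day 5 replicate 5.

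Proximal tubule S1 and S2 genes had the opposite sign. Of 22 tested, 4 were lower at day 10 at an unadjusted p under 0.05 and 0 higher, 18 were below 0, and the median was -0.17. Slc5a2, which encodes the glucose transporter SGLT2, was at 259, 409, 264, 203 and 285 CPM at day 10 and at 487, 386, 389, 480 and 401 CPM at day 5. Day 10 replicate 2 alone reached into the day 5 range. Slc34a1, the main renal phosphate transporter gene, averaged 4662 ± 974 CPM at day 10 and 6265 ± 615 CPM at day 5 (SD, n = 5 each), and its log2 fold change was -0.43. Gatm, of creatine synthesis, and Slc7a7, an amino acid transporter gene, were the other 2, with -0.60 and -0.48. With the Y-linked covariate 7 of 22 were lower, 0 higher, and the median was -0.23. The count was 2 without day 10 replicate 4 or day 5 replicate 4.

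Lists of other compartments had medians of either sign. S3 genes had a median log2 fold change of -0.13. Those of podocytes (0.21), thin limb (0.23), thick ascending limb (0.16), distal convoluted tubule (0.14), principal cells (0.14), inner medulla (0.29) and urothelium (0.45) were above 0. Of these 8 lists together, 1 gene, of the thick ascending limb, passed an unadjusted p of 0.05. With the Y-linked covariate the medians were 0.007 for S3, 0.019 for podocytes, 0.055 for thick ascending limb and 0.09 for principal cells. They were 0.10 for distal convoluted tubule, 0.30 for inner medulla, 0.33 for thin limb and 0.69 for urothelium. Without day 10 replicate 4 and without that covariate, the medians of the thin limb and urothelium lists were -0.02 and -0.15. The share of cortex and medulla in each piece was not measured, and its part in the S1 and S2 values was not tested.

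Interferon-stimulated genes, the class that the study followed in Fh1-/- kidneys, had a log2 fold change below 0 for 52 of 61 tested in the controls, with a median of -0.19. At an unadjusted p under 0.05, 4 were lower and 1 higher. Isg15, a ubiquitin-like modifier, averaged 6.40 ± 1.82 CPM at day 10 and 9.73 ± 2.63 CPM at day 5 (SD, n = 5 each). Oas1g, an oligoadenylate synthetase gene, was at 0.425, 0.816, 0.402, 0.335 and 0.174 CPM at day 10 and at 1.40, 0.857, 1.66, 1.13 and 0.662 CPM at day 5. All 10 values were low, the highest 1.66 CPM. Isg20, a nuclease gene, was the higher member, with a log2 fold change of 0.62. With the Y-linked covariate 22 of 61 were lower and 1 higher and the median was -0.36. Leaving out each library gave medians between -0.31 and -0.11. The count of lower genes was 2 without day 10 replicate 1 or 5 or day 5 replicate 3, 7 without day 10 replicate 3, 8 without day 5 replicate 5 and 10 without day 10 replicate 2.

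DNA replication and mitosis genes also had most members below 0. Of 39 tested, 34 were below 0 with a median of -0.27, and 1 was lower at an unadjusted p under 0.05: Kif11, a spindle motor gene, at 1.44 ± 0.749 CPM at day 10 and 2.74 ± 1.15 CPM at day 5 (SD, n = 5 each). With the Y-linked covariate 17 of the 39 were lower and 0 higher. In the fit without the covariate, the number was 15 when day 10 replicate 2 was left out, at most 3 without each other library and 0 without day 10 replicate 1 or day 5 replicate 1 or 3.

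Large housekeeping classes had medians close to 0. Ribosomal protein genes had 52 of 65 above 0 and a median of 0.11, nuclear respiratory chain genes 67 of 73 below 0 and a median of -0.09, and tricarboxylic acid cycle genes 20 of 21 below 0 and a median of -0.08. Cholesterol synthesis genes had 24 of 27 below 0 with a median of -0.12, led by Mvd and Acat2. In these 4 classes together, 3 genes passed an unadjusted p of 0.05 upwards and 2 downwards. Their medians kept their sign under each of the other scalings and without each library in turn.

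Core clock genes had members of either sign. Arntl (BMAL1), the positive arm of the circadian clock, was at 5.58, 5.61, 4.60, 2.96 and 5.79 CPM at day 10 and at 2.74, 2.34, 3.64, 3.00 and 2.32 CPM at day 5, with a log2 fold change of 0.80 (95% interval 0.33 to 1.28). All but replicate 4 at day 10 lay above day 5. Dbp, a clock output gene in opposite phase to Arntl, averaged 138 ± 35.3 CPM at day 10 and 190 ± 23.6 CPM at day 5 (SD, n = 5 each). The median over the 15 core clock genes was -0.06, and 1 gene in each direction passed an unadjusted p of 0.05. No source used here gives the time of day at which kidneys were taken, and its part was not tested.

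Genes of fasting and PPARA, the fatty acid sensing nuclear receptor, had 3 of 19 higher at an unadjusted p under 0.05. Txnip, a regulator of glucose uptake, averaged 701 ± 165 CPM at day 10 and 469.9 ± 80.4 CPM at day 5 (SD, n = 5 each). Pdk4, a kinase that inhibits pyruvate dehydrogenase, had a log2 fold change of 0.60 (95% interval 0.03 to 1.18). Of the NRF2 targets, 3 of 23 were higher: Nqo1, Cbr3 and Gsta3, at 0.51, 1.26 and 0.47.

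**Figure D2:**
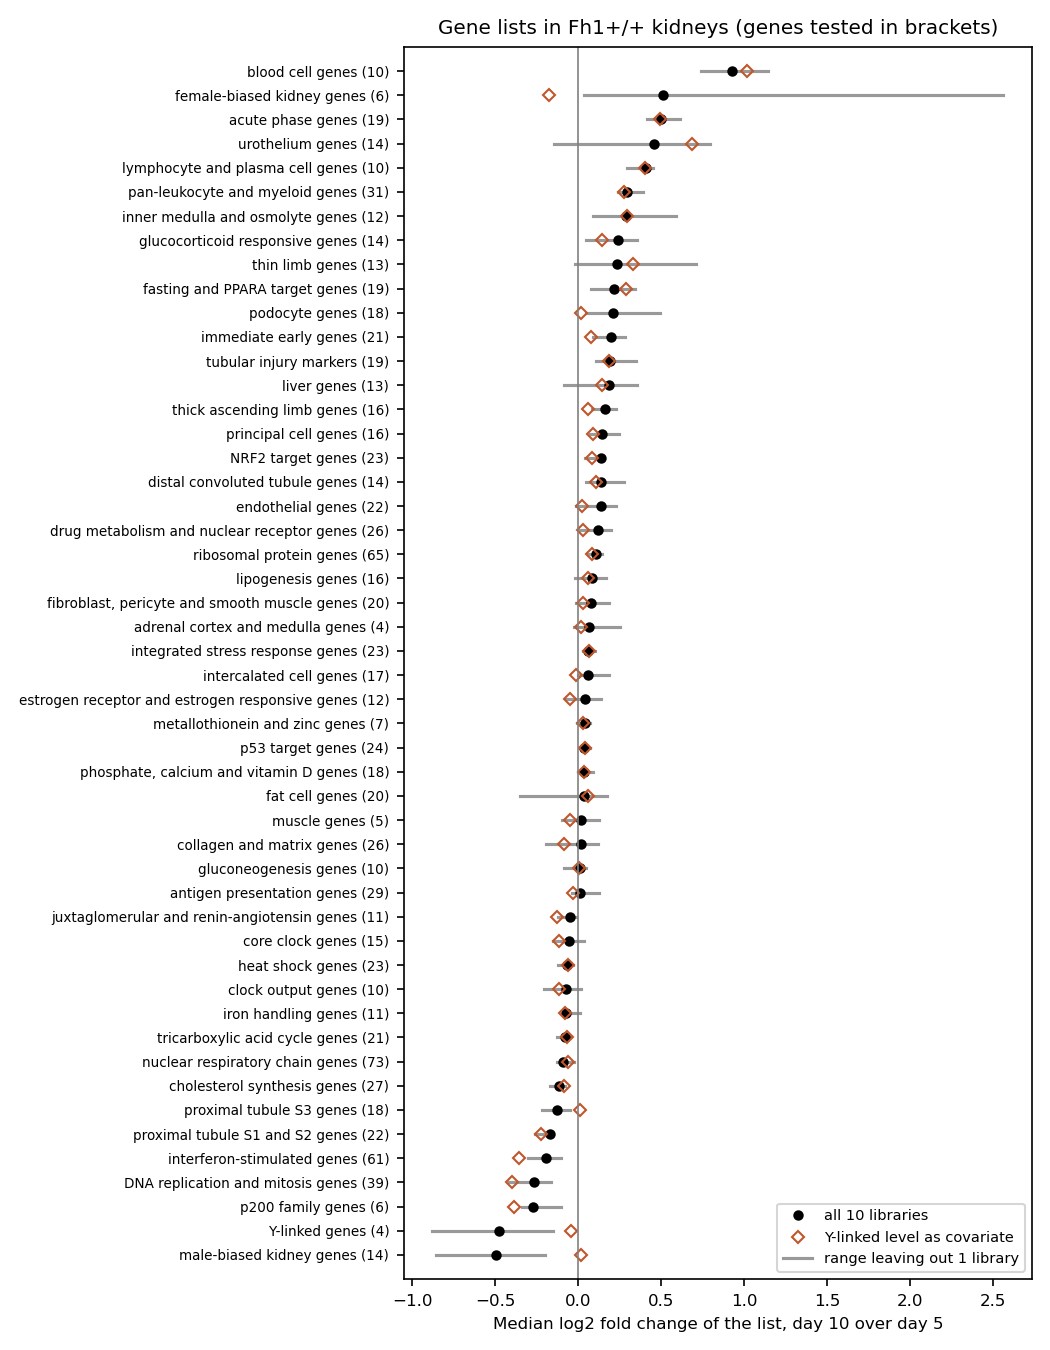
Median log2 fold change of day 10 over day 5 (x axis) for each of the 50 gene lists (y axis, genes tested in brackets), with all 10 Fh1+/+ libraries (black), with the Y-linked level as a covariate (open diamonds) and as the range when 1 library is left out (grey). The leukocyte (0.29) and acute phase (0.50) lists stayed above 0 and the interferon (-0.19) and mitosis (-0.27) lists below it, whereas the ranges of the urothelium and fat cell lists crossed 0.

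The Fh1-/- libraries share no library with the controls. The same comparison called 82 of 14235 genes in Fh1-/- kidneys. Of these, 80 were tested in the controls. There 74 had the same direction, 13 of them at an unadjusted p under 0.05, and none had the opposite direction at that p. The median control change in the direction of the null change was 0.22. Over all genes tested in the controls, 1.99% were higher and 1.98% lower at that p. The share of all genes with the same direction in both genotypes was not counted, so the 74 have no background beside them. The count of 82 moved strongly with single Fh1-/- libraries, as given at the end.

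The difference between the 2 changes, tested as an interaction over all 20 libraries, was called for 5 of 14934 genes (0.0335%). Fga, Fgb and Fgg encode the chains of fibrinogen, and had control log2 fold changes of 0.38, 0.72 and 0.68 against 6.80, 8.80 and 7.74 in the null. Slc9a8, a sodium-proton exchanger gene, had -0.08 against -2.43, and 2410006H16Rik, a non-coding RNA gene, 0.18 against 2.25. None of the 5 passed the adjusted threshold in the controls. Among control libraries Fga reached 109 CPM in day 10 replicate 1 against 25.9 to 56.0 CPM elsewhere. Slc9a8 was at 161 CPM in the same library against 300 to 538 CPM elsewhere.

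The second question was which genes varied most between control kidneys of the same day. The spread of a gene was measured as the SD of its log2 CPM around the mean of each day. Its median over all genes was 0.22 (0.20 at day 5 and 0.23 at day 10), and 363 genes had an SD over 1. Because low genes are noisier, each SD was divided by the trend of genes of a like level, which gives an SD ratio with a median of 0.971 over all genes. These are descriptions without a test.

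The first principal component of the 10 libraries carried 40.1% of the variance and set the 3 libraries with Xist (48.6, 45.1 and 41.3) apart from the other 7 (-32.6 to -4.40). The second carried 15.7% and was positive in day 10 replicates 2 and 4 and day 5 replicate 3 (21.9, 28.5 and 33.7), against -23.1 to -6.65 in the rest. Neither followed the day. On the third, with 10.0%, day 10 libraries lay between 3.68 and 27.0 and day 5 libraries between -28.0 and 1.72; this component was singled out after its values were seen.

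**Figure D3:**
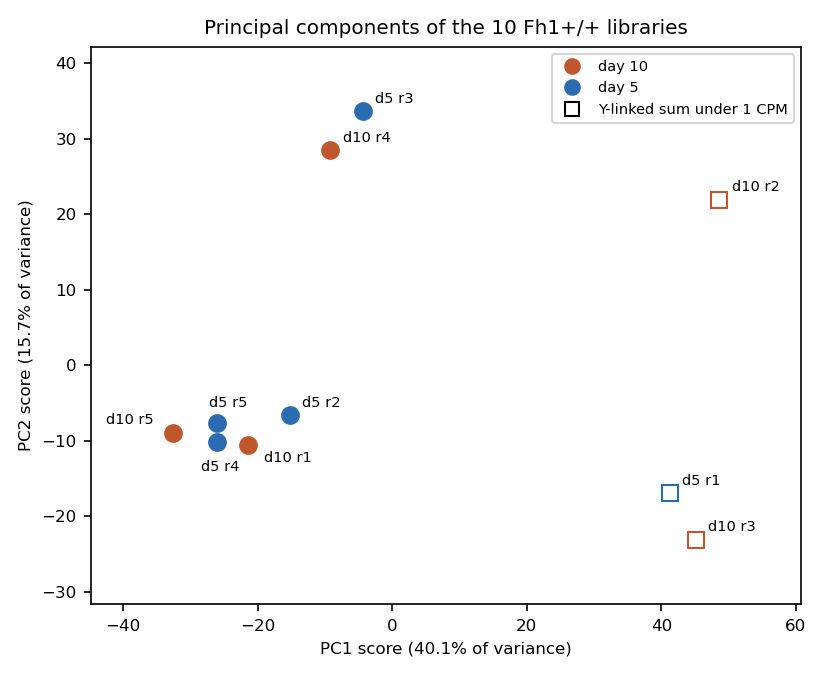
Scores of the 10 Fh1+/+ libraries on the first (x axis) and second (y axis) principal components, coloured by day and drawn as open squares where the Y-linked sum was under 1 CPM. The 3 open squares lie at 41.3 or above on the first component, and 3 libraries from both days lie at 21.9 or above on the second.

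Beside the 4 Y-linked genes, genes known to differ between male and female mouse kidneys had the largest SD ratios. Among the 14 male-biased genes tested, 13 were in the top 10% of all genes by SD ratio, and the list's median ratio was 10.3. For the 6 female-biased genes the median was 9.73 and 5 were in the top 10%. Over all genes, the 3 libraries with Xist lay wholly above the other 7 in 1108 (7.64%) and wholly below in 1573 (10.8%). Of the male-biased genes 11 of 14 lay below and of the female-biased genes 5 of 6 above.

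Slco1a1, an organic anion transporter gene of the proximal tubule on chromosome 6 (GRCm38, 141907282 to 141946962, minus strand), had the largest SD ratio of all genes, 28.7. It was at 180, 0.576, 4.71, 157 and 750 CPM at day 10 and at 0.0518, 387, 228, 345 and 688 CPM at day 5. The 3 libraries with Xist were close to 0, and the other 7 ranged from 157 to 750 CPM among themselves. Slc7a13, an amino acid transporter gene of the S3 segment, was at 2.11, 2.99 and 1.09 CPM in those 3 and between 569 and 1135 CPM in the others.

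Kap, the androgen-regulated kidney protein gene, was lowest in the same libraries but remained highly counted there. It was at 47348, 15195, 18560, 36015 and 55359 CPM at day 10 and at 17368, 43564, 34299, 54717 and 46115 CPM at day 5. The promoters of Slco1a1 and Kap are shown because these 2 male-biased genes lay below the other libraries in the same 3 kidneys, Slco1a1 near 0 and Kap not. They are RefSeq sequences of GRCm38.p6 that run from 250 bases before to 50 after the start site, both on the minus strand, at chr6:141946913-141947212 and chr6:133853618-133853917. Capitals mark TATAAA or its reverse complement.
Slco1a1: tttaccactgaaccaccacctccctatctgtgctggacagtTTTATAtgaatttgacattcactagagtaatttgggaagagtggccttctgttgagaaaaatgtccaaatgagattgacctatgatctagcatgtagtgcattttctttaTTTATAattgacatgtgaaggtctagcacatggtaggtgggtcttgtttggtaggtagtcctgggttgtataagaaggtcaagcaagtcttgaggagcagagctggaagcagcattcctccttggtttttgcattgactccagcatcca
Kap: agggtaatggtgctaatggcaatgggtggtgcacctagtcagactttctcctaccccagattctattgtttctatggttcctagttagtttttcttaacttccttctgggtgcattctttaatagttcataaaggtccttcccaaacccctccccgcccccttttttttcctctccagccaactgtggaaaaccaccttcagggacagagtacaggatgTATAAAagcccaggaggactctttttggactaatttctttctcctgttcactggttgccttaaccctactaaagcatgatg
Kap held TATAAA on the coding strand, beginning 31 bases before the start site, and Slco1a1 held it on the opposite strand in 2 places. The motif was in 13.6% of 32851 promoter windows on either strand. AGAACA, the half-site bound by androgen and glucocorticoid receptors, was searched on both strands and was in neither window, and in 19% of all windows.

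Other genes low in the 3 libraries included those of several enzymes. Acsm3, a medium-chain acyl-CoA synthetase gene, was at 13.7, 9.08 and 14.1 CPM there and between 498 and 2173 CPM elsewhere. Eri2 had the same pattern (11.1, 9.02 and 10.9 CPM against 205 to 893 CPM), but it overlaps Acsm3 on the opposite strand of chromosome 7 and reads of the 2 may not be separable. Cyp7b1, an oxysterol hydroxylase gene, was at 7.29, 8.85 and 6.68 CPM there and between 309 and 619 CPM elsewhere. Cyp4a12a, Cyp2j13, Cyp2d9, Ugt2b37, Slc22a28, Slc22a30, Timd2 and Pzp completed the genes of this pattern among the 30 with the largest ratios. Several of these belong to families of near-identical copies, so their separate levels are uncertain.

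In the opposite direction, Prlr, the prolactin receptor gene, was at 243, 200 and 291 CPM in the 3 libraries and between 8.11 and 22.2 CPM in the others. Abcc3, an organic anion efflux pump gene, was at 166, 241 and 130 CPM against 3.81 to 12.9 CPM. Cyp4a14, a fatty acid omega-hydroxylase gene, was at 465, 1332 and 571 CPM, but day 10 replicates 1 and 4, outside the 3, were at 235 and 162 CPM. Among the 7 libraries without Xist, Cyp4a14 thus ranged from 23.98 to 235 CPM.

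The split reached beyond proximal tubule genes. Of 18 podocyte genes, 14 lay wholly above the other libraries in the 3 with Xist, and their summed level was 960, 981 and 1090 CPM against 535 to 645 CPM. Nphs1, which encodes nephrin of the slit diaphragm, was at 32.2, 38.9 and 46.0 CPM in the 3 and between 12.6 and 18.9 CPM elsewhere. Endothelial genes had 8 of 22, intercalated cell genes 9 of 17 and thick ascending limb genes 7 of 16 wholly above. When the spread was also centred on the Y-linked level, the median ratio of podocyte genes went from 2.40 to 1.10, of male-biased genes from 10.3 to 3.73 and of Y-linked genes from 12.2 to 0.849. The fall of the Y-linked genes was set by the method, because the level regressed out was the sum of those same genes. The median SD over all genes went from 0.22 to 0.19.

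A second group of genes varied in other libraries. Urothelium genes had a median ratio of 4.29 with 11 of 14 in the top 10%, thin limb genes 3.57 with 9 of 13, and inner medulla and osmolyte genes 2.88 with 9 of 12. All 3 lists had their highest sums in the same libraries, day 10 replicates 2 and 4 and day 5 replicate 3, those positive on the second component. The urothelium sum was 357, 453 and 339 CPM there against 146 to 236 CPM elsewhere. The inner medulla sum was 1868, 1840 and 1962 CPM against 893 to 1507 CPM. The thin limb and inner medulla lists share Slc14a2, Akr1b3 and Cryab, so their sums are not independent, and no sum without these genes is given. Slc6a6, which had the largest counts of the inner medulla list, was highest in day 10 replicate 1 (606 CPM), outside the 3 libraries. Krt7 had the largest counts in the urothelium sum (118 to 199 CPM) and was highest in day 5 replicate 1. Day 5 replicate 4, negative on the second component (-10.1), also had high Upk1a, Upk1b and Upk2 (12.8, 11.6 and 6.56 CPM). In day 5 replicate 3 these 3 genes were at 12.8, 11.2 and 4.72 CPM. Upk3b was low in day 5 replicate 4 (4.18 CPM).

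Psca, a surface protein gene of the urothelium, was at 5.05, 56.2, 0.287, 79.2 and 2.61 CPM at day 10 and at 1.29, 1.54, 57.9, 11.1 and 5.30 CPM at day 5. Aldh1a3, Muc20 and the genes named with them below were singled out after their values were seen, from the ranking centred on the Y-linked level. Aldh1a3, a retinoic acid synthesising enzyme gene, was at 73.6, 145 and 62.2 CPM in the 3 high libraries and at or under 2.57 CPM in the other 7. Akr1b3, which encodes the aldose reductase that makes the osmolyte sorbitol, was at 102, 131 and 140 CPM there and between 5.57 and 16.6 CPM elsewhere. Its processed pseudogene Gm6644 on chromosome 1 had nearly the same values (139.68 against 139.73 CPM in day 5 replicate 3), so the 2 cannot be counted as separate genes.

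Slc6a12, the betaine transporter gene, had 15.7, 12.2 and 17.2 CPM in these libraries and at most 2.46 CPM elsewhere. Cryab, a small heat shock protein gene abundant in papilla, had 437, 563 and 595 CPM against 158 to 244 CPM. Muc20, Igfbp2, Sptssb, Fcgbp, Hspa1b, Tnn and Ndrg4 were also highest in these 3. The share of papilla or pelvis in each kidney piece was not measured, and its part in this pattern was not tested.

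Blood and fat genes varied in further sets of libraries. Hbb-bs, adult beta globin, was at 317, 2.83, 0.115, 231 and 601 CPM at day 10 and at 0.621, 23.3, 0, 0.565 and 66.7 CPM at day 5. Hba-a1, adult alpha globin, was at 163, 2.16, 0.0574, 112 and 266 CPM at day 10 and at most 29.9 CPM at day 5. Replicates 1, 4 and 5 of day 10 thus held globin transcripts that most others lacked, and Alas2, the erythroid haem synthesis enzyme, had its 3 highest values (28.5, 16.95 and 36.3 CPM) in the same libraries. Hba-a1 had a log2 fold change between days of 3.70 (95% interval 0.20 to 7.20). Hba-a2, Hbb-b1 and Hbb-b2 had rows identical to Hba-a1, Hbb-bs and Hbb-bt and were counted once in the list.

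Fat cell genes had a median ratio of 4.29, with 17 of 20 in the top 10%. Cfd, which encodes the adipokine adipsin, was at 0.797, 23.7, 13.1, 67.8 and 109.5 CPM at day 10 and at 73.2, 44.7, 70.4, 141 and 2.81 CPM at day 5. Day 10 replicate 1 and day 5 replicate 5 were lowest, as they were for the adipokine gene Adipoq (0.106 and 1.27 CPM, against 3.22 to 22.4 CPM in the others). Ucp1, the uncoupling protein of brown fat, was at 60.1 CPM in day 10 replicate 5 and at or under 10.9 CPM elsewhere. The amount of fat left on the pieces was not measured.

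Of the 16 adrenal genes in the table, 4 passed the filter on low counts. Fdx1 lay between 62.6 and 102 CPM, Scarb1 between 25.9 and 34.9 CPM, Akr1b7 between 2.14 and 7.14 CPM and Star between 2.49 and 5.68 CPM. Star, which encodes a cholesterol carrier of steroid synthesis, had a log2 fold change of 0.47 (95% interval 0.04 to 0.90). The steroid hydroxylase gene Cyp11b1 was listed at 0 in 8 of 10 libraries and reached 1.06 CPM in day 10 replicate 1, where Cyp21a1, another one, was at 2.55 CPM. Of the muscle list 5 of 19 genes passed the filter. Pvalb, also a gene of the distal convoluted tubule, lay between 27.8 and 72.8 CPM, and the myosin gene Myh4 was listed at 0 in all 10. Tnnc1, a troponin gene, averaged 1.08 ± 0.199 CPM at day 10 and 1.94 ± 0.547 CPM at day 5 (SD, n = 5 each). Myh1, another myosin gene, was at 2.59, 5.23 and 2.59 CPM in the 3 libraries with Xist and at 0 in the other 7.

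Other genes, taken from the same ranking centred on the Y-linked level, varied in patterns of their own. Cyp24a1, the vitamin D catabolic enzyme, was at 226 CPM in day 10 replicate 3 and 118 CPM in day 5 replicate 4, against 14.0 to 50.4 CPM in the other 8. Tgfb2, a growth factor gene, ranged from 5.63 to 176 CPM, with its highest value in day 10 replicate 1. Abhd1, a hydrolase-family gene on chromosome 5 (GRCm38, 30950066 to 30955091, plus strand), took either of 2 levels: 81.4, 61.1, 79.8, 83.9 and 80.8 CPM in day 10 replicates 1, 2 and 5 and day 5 replicates 1 and 2, and 11.5 to 12.8 CPM in the other 5.

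Fam213b, a prostamide synthase gene on chromosome 4 (GRCm38, 154895504 to 154899135, minus strand), was at 11.3 and 10.9 CPM in day 10 replicate 4 and day 5 replicate 3 and between 46.2 and 116 CPM in the others. Neither gene followed day, Xist or the second component alone. The mice were of mixed background and their genotypes at these loci were not analysed here.

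**Figure D4:**
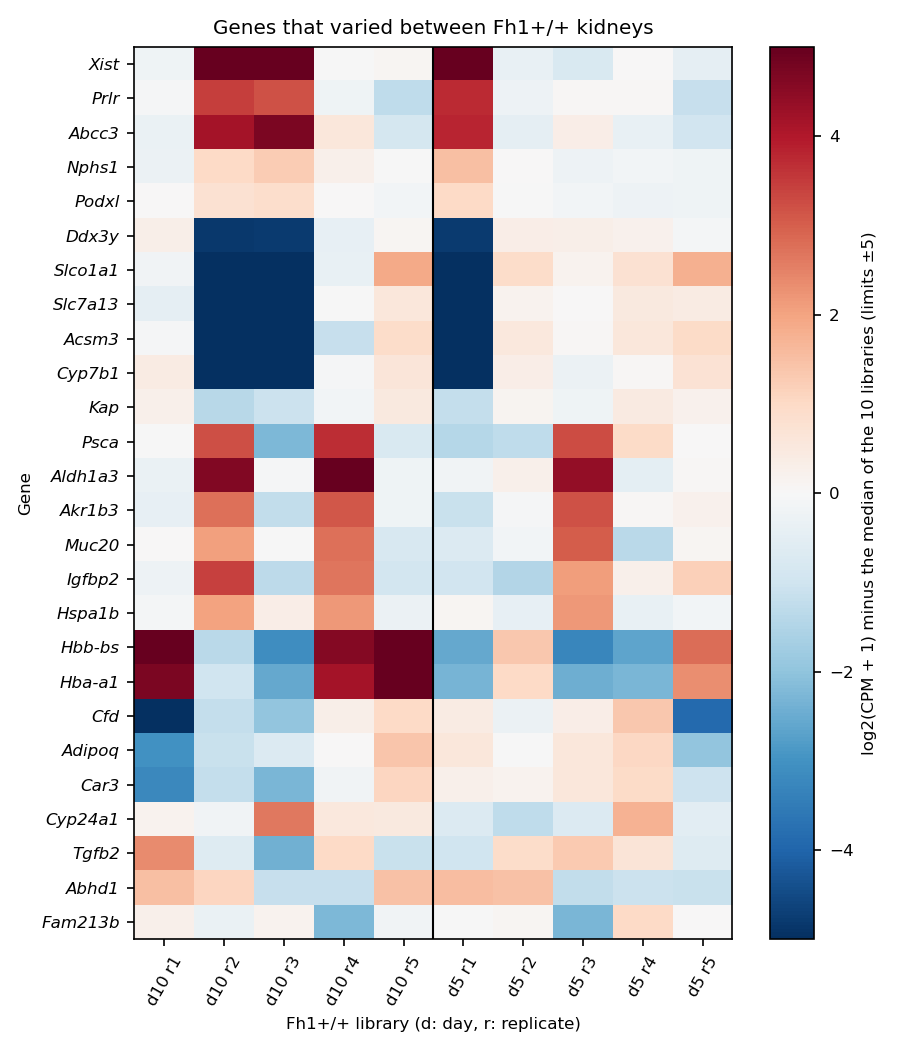
Level of 26 variable genes (y axis) in each Fh1+/+ library (x axis, day 10 left of the line and day 5 right), as log2(CPM + 1) minus the gene's median over the 10 libraries, in red above and blue below. Prlr and Slc7a13 split the 3 libraries with Xist from the other 7, Psca and Akr1b3 mark another set of 3, and the globin, fat and Abhd1 patterns each follow different libraries.

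Among other classes, the median ratio was 2.54 for collagen and matrix genes, 2.51 for acute phase genes, 2.30 for glucocorticoid responsive genes, 1.95 for immediate early genes, 1.65 for interferon-stimulated genes and 1.60 for core clock genes. Per1, a clock gene that also responds to glucocorticoids, ranged from 17.8 CPM in day 10 replicate 5 to 113 CPM in replicate 3 of the same day, with a ratio of 5.11. Gbp3, a guanylate-binding protein gene, had the largest ratio among the interferon-stimulated genes (7.39). Lyz2, the macrophage and granulocyte lysozyme gene, ranged from 15.01 to 116 CPM, and its ratio of 5.94 was the largest of the leukocyte list.

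Genes of central metabolism and translation varied least. Tricarboxylic acid cycle genes had a median ratio of 0.669, ribosomal protein genes 0.843 and nuclear respiratory chain genes 0.937, with 0 of 21, 0 of 65 and 1 of 73 in the top 10%. The exception was Cox8b, a cytochrome oxidase subunit of muscle and brown fat, which was highest (9.09 CPM) in day 10 replicate 5, the library with the most Ucp1. The 65 ribosomal protein genes were only part of their class. Others, among them Rps27a and Rps7 (means of 0.241 and 0.410 CPM at day 5), did not pass the filter on low counts. Fh1 itself had an SD of 0.10 and a ratio of 0.546, ranking 13136 of 14501.

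**Figure D5:**
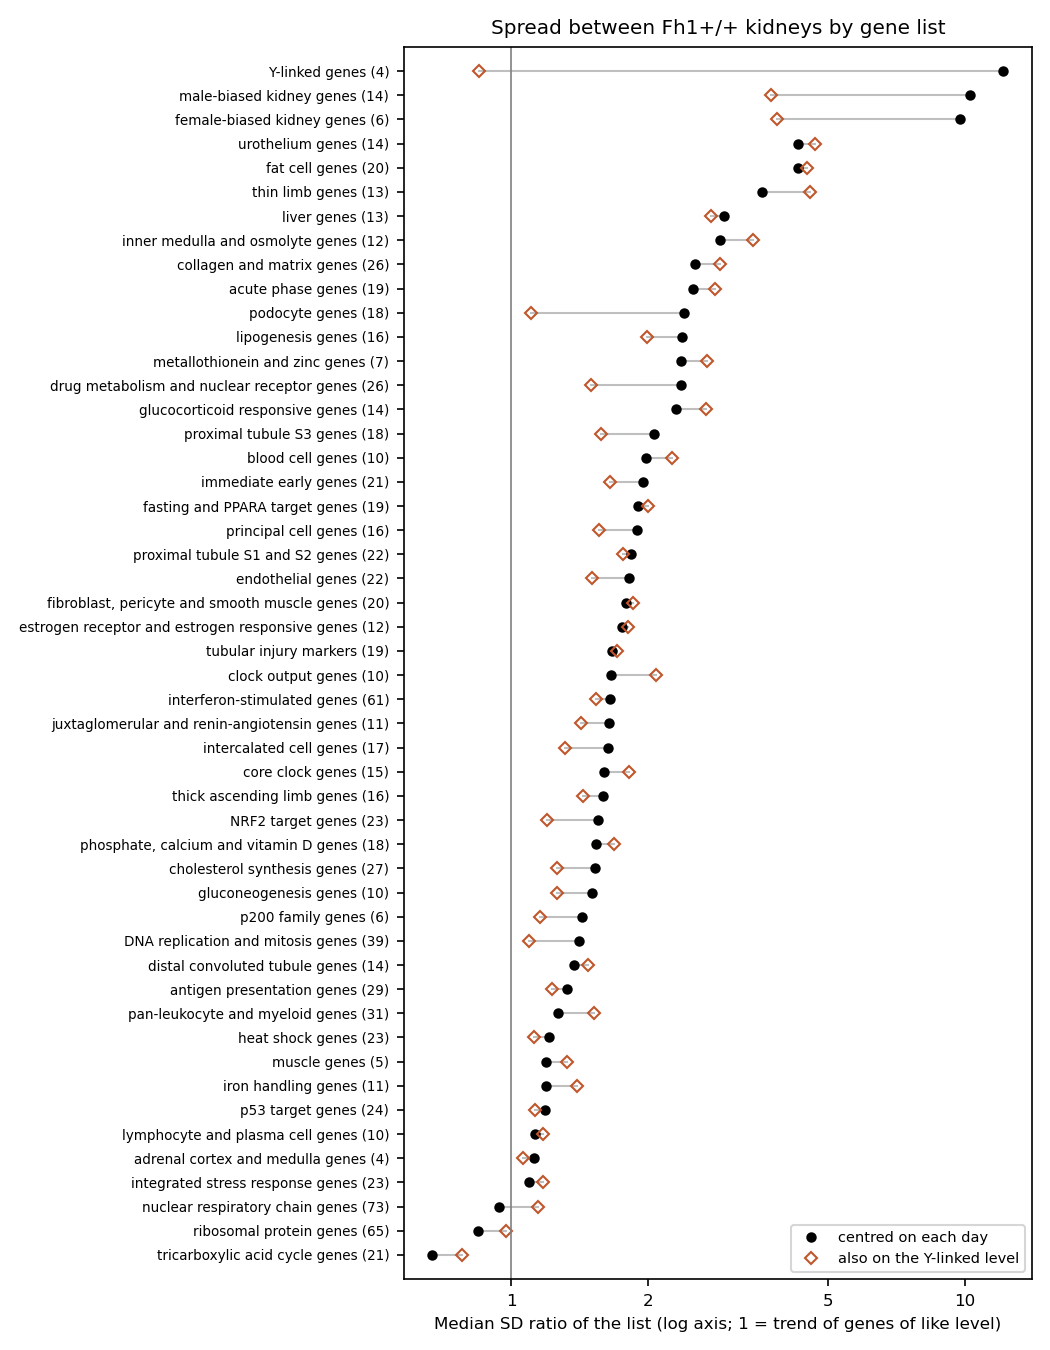
Median SD ratio (x axis, log scale, 1 being the trend of genes of a like level) of each gene list (y axis, genes tested in brackets), with log2 CPM centred on each day (black) and also on the Y-linked level (open diamonds). Y-linked, male-biased and podocyte genes move left with the second centring (12.2 to 0.849, 10.3 to 3.73 and 2.40 to 1.10), while urothelium, fat cell and thin limb genes stay above 3. The move of the Y-linked genes is built in, because their own sum was regressed out.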

How the data were processed

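Per the labels and the study's methods, polyA-selected stranded libraries were mapped by the authors with STAR 2.6.0c to GRCm38, reads with a mapping quality under 20 were removed, and reads were counted per gene. The authors deposited 1 table of raw counts per gene symbol. No source used here states whether counting used strand. The counts of the 10 Fh1+/+ libraries were fitted in R 4.3.3 with edgeR 4.0.16 (filterByExpr, TMM scaling, quasi-likelihood test, Benjamini-Hochberg adjustment). A call needed an adjusted p under 0.01 and an absolute log2 fold change over 0.58. The difference between genotypes was an interaction term over all 20 libraries. Standard errors were taken from the test statistic. DESeq2 1.42.0 and limma 3.58.1 (voom) were alternatives, beside other scalings, filters, covariates and leaving out each library.

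The spread was the SD of log2 CPM (prior count 2) around each day's mean, divided by its lowess trend on mean level (span 0.3). The second version also regressed out the log2 summed level of 4 Y-linked genes (pseudocount 0.5). Genes were named by rule: 10 in each direction by lowest p, 30 by SD ratio, and members of the gene lists. The members, lists and tests were chosen with earlier results of these data known. Of the symbols, 27 had rows identical to another, and 4 list members were dropped for it. Coordinates are GRCm38 positions from the GENCODE annotation. All pairs of libraries of a day differed by more than counting noise. The fitting code was tested on simulated data. One gene that these rules named is not reported here.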

Additional observations from a re-analysis of the deposited data

Results flagged for a closer look

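Among 108 groups of 5 libraries examined, 14 had 1 library whose gap to the nearest other passed Dixon's limit for 5 values (0.71). Chance flags about 1 in 20 groups, but many of these genes were named for a large spread or a low p, so that rate is not the one to expect here and their number is only a description. They are also not independent: 9 come from 1 library, and the values of Gm6644 nearly repeat those of Akr1b3. Day 5 replicate 1, the only day 5 library with Xist above 1 CPM, gave these 9: Xist (323 CPM), Prlr (291 CPM), Abcc3 (130 CPM), Cyp4a14 (571 CPM) and Fgg (15.4 CPM) above the other 4, and Slc7a13 (1.09 CPM), Eif2s3y (0.155 CPM), Ddx3y (0.259 CPM) and Uty (0.104 CPM) below them. Day 5 replicate 3 gave 3, with Akr1b3 at 140 CPM, its pseudogene Gm6644 at 139.68 CPM and Psca at 57.9 CPM. At day 10, Dnah1 was highest in replicate 2 (1.15 CPM) and Slco1a1 in replicate 5 (750.1 CPM).

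The change from day 5 to day 10 differed between genotypes, by the interaction test, for 5 genes. The difference, control minus null on the log2 scale, was -2.07 for 2410006H16Rik, 2.35 for Slc9a8, -7.06 for Fgg, -6.42 for Fga and -8.08 for Fgb. When each of the 20 libraries was left out in turn, 2410006H16Rik, Fgg and Fga were called in 20 of 20 fits, Slc9a8 in 10 and Fgb in 2.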

How the results depend on the processing

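No gene was called for time in Fh1+/+ kidneys under any alternative run (other scalings, filters, thresholds, tests, covariates, all 20 libraries, each library left out). Replicate numbers were not treated as pairs, as the labels state no pairing. Correlations of same-numbered libraries ran from -0.45 to 0.33. They cannot decide whether a pairing exists, because the split by Xist also shaped them. Day 5 replicate 1 had 0.54 and 0.60 with day 10 replicates 2 and 3, the other libraries with Xist. With the replicate block, 0 genes were called in the controls, 0 in Fh1-/- kidneys and 2 for the difference between genotypes. The 20 genes of lowest p kept their direction and their side of the threshold in all 378 alternatives. They were chosen from the libraries that the alternatives refit, and no gene was called in any, so this adds no independent support.

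The Fh1-/- count of 82 and the difference count of 5 moved strongly. DESeq2 gave 1334 and 274. Leaving out each library gave 0 to 774 in Fh1-/- kidneys and 3 to 296 for the difference, both highest without Fh1-/- day 10 replicate 2, and the former 0 without Fh1-/- day 10 replicate 1 or day 5 replicate 1. The difference count was 3 without Fh1-/- day 10 replicates 1 and 3, 92 with the Y-linked covariate and 161 when the adjusted p had to be under 0.05 and no fold was required. The causes were not tested beyond these settings.

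The median spread of 0.223 was 0.185 when centred on the Y-linked level, and 0.214 to 0.231 when each library was left out. Of 700 alternative list ratios, 690 moved by less than the list's own spread between libraries. That spread can be wide where a few libraries drive a list. The alternatives also refit the same libraries, so this count adds no independent support. Genes under a few CPM, and genes whose interval reached beyond ±0.58, are limited by depth and by the spread between kidneys.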
